A study of Mus musculus with 3 samples.

Results

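Opalin-type oligodendrocytes were the myelin-gene-expressing cells of mouse glioblastoma in which Opalin, Il33 and Grb14 outnumbered Klk6, Hapln2 and Anln. They were chosen by summed raw counts of unique molecular identifiers (UMIs, each 1 captured mRNA molecule) in single cells sorted as negative for the leukocyte antigen CD45. A cell was selected if it held at least 500 UMIs, at least 500 genes and at most 20% mitochondrial UMIs, at least 4 UMIs of Mag, Mog, Cldn11 and Mal together, no UMI of the human EGFR transgene (hsEGFR), at most 2 UMIs of the microglial genes P2ry12, Tmem119 and Gpr34, and more UMIs of the Opalin side than of the Klk6 side. Of 20811 deposited cells, 9091 came from CD45- libraries, 6676 of these passed the limits on UMIs, genes and mitochondrial share, 2927 met the myelin, transgene and microglial limits, and 1626 were Opalin-type, 800 at the early, 385 at the medium and 441 at the late stage (labelled large). The Klk6 side was higher in 960 oligodendrocytes, and both sides were equal in 341.

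Every tumor was driven by conditional wild-type human EGFR in mice with constitutive loss of Cdkn2a and a conditional luciferase reporter, all on a mixed background, and was started in adult mice of both sexes by stereotactic injection of a Cre lentivirus into the striatum. All 3 stages shared the genotype. The paper tells early from late tumors by bioluminescence, and how the medium stage was assigned is not given in the sources used here. Brains without cerebellum were dissociated with collagenase, myelin debris was removed on Percoll, and viable CD45- cells were encapsulated with the inDrop system and split into 4 libraries per stage, sequenced over 3 runs. The methods give early samples as pooled animals and the 4 libraries as a division of the cells of a sample, and the 4 libraries of a stage (A to D) carry 1 sample name. They were therefore treated as technical repeats of 1 tumor sample, although no label says outright that they came from 1 tumor or pool. On this reading no test between stages was made, and intervals below cover counting error only. Cells from tumor and from brain outside it were not separated, and normal brain was not analysed here.

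Oligodendrocytes wrap axons in myelin, a stack of lipid-rich membrane held together by proteins such as MBP, with MAG on the membrane facing the axon and MOG on the outermost surface. Opalin is a transmembrane sialoglycoprotein of the oligodendrocyte and a marker of its mature state. IL-33, a nuclear cytokine of the IL-1 family that is released when cells are damaged, is made by mature oligodendrocytes of the adult mouse brain. Grb14 encodes an adaptor that binds the insulin receptor.

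Library depth of the 1626 cells was 209377 to 732290 UMIs, with 83 to 230 cells in a library. The median cell held 2205 UMIs at the early, 2760 at the medium and 2512 at the late stage, and single cells ranged from 824 to 22537 UMIs. Mitochondrial genes took 7.93%, 6.36% and 3.42% of UMIs. Xist, the RNA that coats the inactive X chromosome of females, was 108 to 147 CPM (counts scaled to a total of 1000000 UMIs) in the 4 early libraries but 0 to 4.73 at the medium and 0 to 3.90 at the late stage, whereas the Y-linked Ddx3y was 52.5 to 116 CPM in all 12 libraries. Stage, sex of the animals and mixed background cannot be told apart. Haemoglobin and heme synthesis genes were 273 to 18358 CPM in early, 0 to 42.4 in medium and 0 in late libraries. Droplet barcodes recurred between libraries of 1 stage, with 60 shared barcodes over 18 pairs of libraries against 6 over 48 pairs of different stages, and 94 early (11.8%), 7 medium (1.82%) and 79 late Opalin-type cells (17.9%) shared a barcode with a cell of another library of their stage.

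The label rests on Opalin, Il33, Mag and Mog, all of which belong to the rule. Opalin (ENSMUSG00000050121, GRCm38 chromosome 19, 41061710 to 41077113) stood at 861, 897, 969 and 893 CPM in early libraries A to D. The medium libraries gave 936, 1088, 1106 and 1145 CPM and the late libraries 1274, 1088, 1099 and 1073 CPM. The lowest late library was thus above every early library, while medium library A lay within the early range. Il33 (chromosome 19, 29925114 to 29960718) ranged from 732 to 826 CPM at the early, 586 to 904 at the medium and 643 to 865 at the late stage, so that the stages overlapped. Mag ranged from 2913 to 3100, 3481 to 3658 and 3491 to 4334 CPM, and Mog from 1965 to 2072, 1791 to 2119 and 2153 to 2612 CPM. Since the rule selected cells on these genes, their presence does not test the label.

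A small group of members went against the label. Of the 1626 cells, 33 had no Mag or Mog UMI (19 early, 5 medium, 9 late), and 16 of these 33 carried at least 5 UMIs of Col1a1, Col1a2, Col3a1 and Dcn, genes of fibroblasts and other matrix-making cells, against 2 of the other 1593. These 33 cells held 628 CPM of Mbp, against 6094 CPM in the rest, and had met the myelin gate through Cldn11 at 2466 CPM and Mal at 770 CPM. Counts of genes and some list medians are given with and without them below, and the share of UMIs in them is given for the named genes that it touches most.

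To see how common these cells were in each tumor, their share was taken among CD45- cells and among oligodendrocytes. Opalin-type cells made up 29.0% of CD45- cells at the early (800 of 2760 cells, 95% Clopper-Pearson interval 27.3 to 30.7), 23.8% at the medium (385 of 1617, 21.8 to 26.0) and 19.2% at the late stage (441 of 2299, 17.6 to 20.9). Libraries ranged from 26.3% to 30.8%, from 22.3% to 25.4% and from 17.0% to 20.6%, so that no library of 1 stage overlapped another stage. Without the cells that shared a barcode the shares were 30.3%, 24.4% and 22.5%. Over every deposited CD45- cell, with no limit on UMIs, genes or mitochondrial share, the shares were 24.1%, 15.8% and 17.6%, so that the late share lay above the medium one and the order of the stages was lost. With the limits, the same order held within each run, at 30.3%, 24.6% and 18.1% in run 1, 26.3%, 22.8% and 20.6% in run 2 and 30.0%, 25.4% and 20.1% in run 3. All oligodendrocytes followed the same order, from 54.6% through 42.7% to 31.8% of CD45- cells, and a share of a sorted fraction also moves with the number of other cells in it.

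Among oligodendrocytes the order was the opposite. Opalin-type cells were 53.1% of early (800 of 1506, 50.6 to 55.7), 55.7% of medium (385 of 691, 51.9 to 59.5) and 60.4% of late oligodendrocytes (441 of 730, 56.8 to 64.0). Early libraries ranged from 49.6% to 55.9%, medium from 52.5% to 60.1% and late from 57.9% to 64.1%, so that the late libraries lay above the early ones and overlapped the medium ones. This order rests on the limit on the transgene. Of the cells with at least 4 myelin UMIs, 2 of 1525 early, 116 of 809 medium and 229 of 961 late cells held an hsEGFR UMI and were left out, and the Opalin side was higher in 63 of these 347. Without that limit the shares were 53.1%, 51.1% and 49.9% of oligodendrocytes, so that this order was reversed. They were 29.0%, 25.5% and 20.7% of CD45- cells, where the order held. Of the 347 cells left out, 30 held a single hsEGFR UMI. The part that free hsEGFR RNA or tumor cells had in those counts was not tested.

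**Figure D1:**
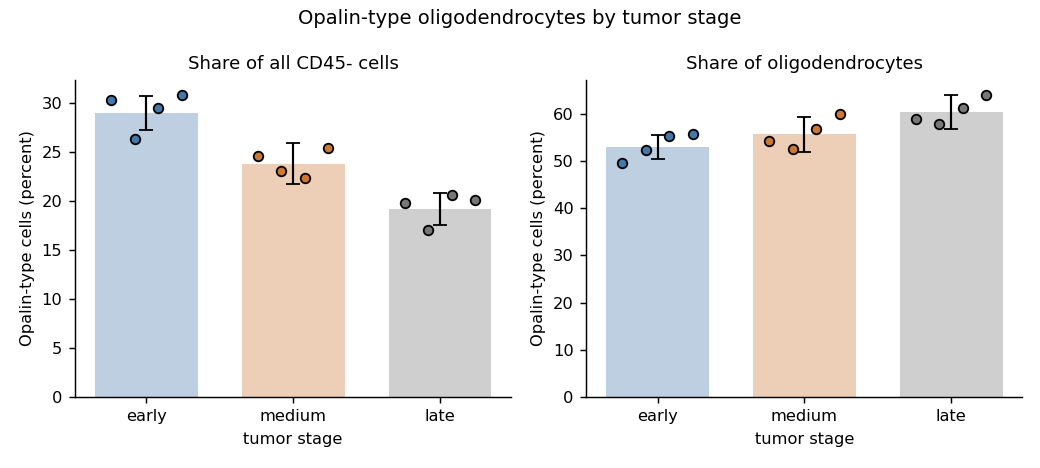
Share of Opalin-type cells among CD45- cells (first panel) and among oligodendrocytes (second panel), in percent, by stage. Bars are stage shares with 95% Clopper-Pearson intervals and points are the 4 technical libraries of each stage; the share falls from 29.0% to 19.2% in the first panel and goes from 53.1% to 60.4% in the second.

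The members differed among themselves in which gene of the Opalin side they showed. At least 1 Opalin UMI was found in 1302 cells (80.1%), Il33 in 1114 (68.5%) and Grb14 in 1027 (63.2%), and all 3 genes in 550 (33.8%). Opalin itself was missing in 324 members (19.9%), and 767 members (47.2%) had no UMI of the Klk6 side at all. Opalin UMIs were found in 74.8% of early, 83.6% of medium and 86.6% of late members, with the median depths given above. After each cell was thinned to 800 UMIs, the shares with an Opalin UMI were 50.0%, 53.8% and 60.8%. Klk6-type cells gave 10.8%, 8.97% and 15.8%, a gap that the rule, which counts Opalin, builds in. Il33 was then found in 42.25%, 39.5% and 44.9% of members and Grb14 in 36.9%, 34.0% and 29.0%. Since members were picked on the sum of these 3 genes, their shares within members cannot show whether the genes move together between stages. An Opalin UMI was found in 1.22% of microglial cells (at least 5 UMIs of the 3 microglial genes, median 2272 UMIs before thinning) and 0 of 344 endothelial cells (median 1489 UMIs). The last value allows up to 0.872% of cells with an Opalin UMI at this depth and sets no limit on the share that express the gene.

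Members selected by different genes were alike in a gene outside the rule, with exceptions. Ptgds, the lipocalin-type prostaglandin D2 synthase, stood at 11350 to 12060 CPM in the 5 groups that had Opalin or both Il33 and Grb14. It was 6352 CPM in the 105 cells with Il33 alone, 16 of which had no Mag or Mog UMI, and 7253 CPM in the 90 cells with Grb14 alone. S100b, a calcium-binding protein, was 59.9 to 103 CPM in all groups but the cells with Grb14 alone, where it was 246 CPM and found in 32.2% of cells. Apod, a lipid carrier, was 2070 CPM in the cells with Grb14 alone, 3068 in those with Il33 alone and 1939 to 3396 CPM in the other groups.

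Around the threshold of the rule S100b went up step by step toward the Klk6 side, and Ptgds did not go down at every step. In the 1357 members with the Opalin side higher by 2 UMIs or more, Ptgds was 11784 CPM and S100b 74.7 CPM. In the 269 members just inside the threshold, higher by 1 UMI, the values were 8153 and 207 CPM. In the 341 cells with both sides equal, just outside, they were 5969 and 253 CPM, and 87 of these had no Mag or Mog UMI. In the 175 cells with the Klk6 side higher by 1 UMI they were 6186 and 384 CPM. At the lower end of the myelin gate, 36 members held 4 to 7 myelin UMIs, 19 of them without Mag or Mog, and Mbp was 730 CPM, against 92.3 CPM in the 7 cells that held 3 myelin UMIs and met all other limits.

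To describe what else sets Opalin-type apart from Klk6-type oligodendrocytes, summed counts were compared within each stage. Since these cells were chosen on the same counts, the contrast is a description. At least 2-fold higher in all 3 stages were 174 of 12508 genes (1.39%) and at least 2-fold lower were 97 (0.776%), genes of the rule included. The median log2 ratio over all genes was 0.05, 0.02 and 0.06 at the early, medium and late stage.

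Ptgds (chromosome 2, 25466709 to 25470046) was the most abundant transcript outside the rule that separated both types. Its level in Opalin-type cells was 10880, 13330, 14400 and 12320 CPM in early libraries A to D, 10640, 8801, 8413 and 10920 CPM in medium and 11800, 8334, 10180 and 9779 CPM in late libraries. In Klk6-type cells it was 3297 to 4573, 2054 to 2958 and 1960 to 4124 CPM, so that the types did not overlap in any stage. The log2 ratio was 1.76 (95% counting interval 1.72 to 1.80), 2.03 (1.96 to 2.09) and 1.77 (1.70 to 1.84). After thinning, a Ptgds UMI was found in 94.6%, 90.4% and 92.1% of Opalin-type and in 53.2%, 46.6% and 50.2% of Klk6-type cells, against 7.93% of microglial and 6.40% of endothelial cells.

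Some list genes that were higher in Opalin-type cells are given next, chosen for their values, and not all of them passed 2-fold in every stage. Tspan2, a tetraspanin of myelin, had log2 ratios of 1.04, 1.00 and 1.00, and Cd9, another tetraspanin, 1.01, 0.84 and 0.82. Gstp1, a glutathione transferase, stood at 0.94, 0.96 and 0.95, and Mt1, a metallothionein that binds zinc, at 1.02, 1.06 and 1.68. The ephrin receptor gene Epha4 stood at 1.75, 1.56 and 2.69, with 103, 59 and 54 UMIs against 23, 16 and 4. Ntrk2, the receptor of brain-derived neurotrophic factor, stood at 1.33, 2.03 and 2.24, and Parvb, a partner of integrin-linked kinase, at 1.09, 1.68 and 1.35. The adhesion receptor Adgrg1 held 87, 42 and 64 UMIs in Opalin-type against 11, 11 and 0 in Klk6-type cells. Timp3, an inhibitor of matrix metalloproteinases, stood at 1.62, 1.48 and 1.74. Several of these genes were more common in other cells. After thinning, Parvb was found in 3.88% of early members and 15.1% of endothelial cells, Timp3 in 2.50% and 25% and Adgrg1 in 2.50% of early members and 30.5% of microglial cells. Markers of other cells also differed between the types, with median log2 ratios of 2.20, −0.02 and 2.31 over 8 neuronal and 0.61, 0.78 and 1.94 over 10 endothelial markers, and their part in the contrast was not tested.

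The 15 genes whose smallest ratio over the stages was highest were all low. Synpr, a synaptic vesicle protein, held 69, 23 and 33 UMIs against 4, 0 and 1, Kirrel3, an adhesion protein of the immunoglobulin family, 25, 26 and 33 against 3, 1 and 1, and Ust, a sulfotransferase, 26, 25 and 47 against 1, 1 and 5. The others were Cnksr2, Arhgef19, Tmem178, Btbd16, Sez6l, Slc8a2, Cemip2, H2-Eb1, Loxl1, Pdgfrb, Arhgap29 and Col8a2. Of the UMIs of the last 4, 61.9% to 75.0% lay in the 33 members without Mag or Mog, and without those cells Loxl1, Pdgfrb and Col8a2 no longer had 1 direction in all stages, while the smallest ratio of Arhgap29 was 1.34.

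Lower in Opalin-type cells were genes of the Klk6 type that the rule did not use. S100b stood at 92.8, 127 and 69.4 CPM against 1072, 1305 and 1082 CPM, with log2 ratios of −3.53 (−3.75 to −3.32), −3.36 (−3.62 to −3.12) and −3.96 (−4.30 to −3.64). Hopx, a small homeodomain protein that does not bind DNA, stood at 43.8, 28.1 and 24.2 against 306, 235 and 247 CPM. S100b and Hopx did not overlap between the types in any library of any stage, as the plot of levels by library shows. Uchl1, a ubiquitin hydrolase, had log2 ratios of −1.89, −2.83 and −1.97, and Slc25a27, a mitochondrial carrier, −1.88, −2.43 and −2.19. The homeodomain gene Nkx2-9 held 8, 0 and 3 UMIs against 73, 37 and 34, and Barx2, of the same kind, 0 in all stages against 22, 7 and 10. Also among the 15 lowest were St8sia5, Adgrg6, Esrp1, Mycn, Rab37, Bace2, Dpysl5, Zbtb8a and Smtnl2, which were low in both types.

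More abundant genes showed smaller differences in the same direction. Apod, a lipocalin that carries lipids, had log2 ratios of −1.10, −0.82 and −0.86, and Selenop, a secreted selenoprotein, −1.35, −1.11 and −1.49. Pmp22, a myelin protein best known from peripheral nerve, stood at −1.81, −0.91 and −1.42, Enpp6, a choline-releasing phosphodiesterase, at −1.77, −1.84 and −1.26, and the iron carrier Trf at −0.56, −0.50 and −0.69. Major myelin genes hardly separated the types, with Mbp at −0.25, −0.18 and −0.21 and Mag, a gene of the rule, at −0.15, −0.25 and −0.14. The median log2 ratio over 35 myelin protein genes was −0.14, −0.15 and −0.18, with 1 gene at least 2-fold higher and 1 lower in all stages, and over 26 cholesterol genes −0.24, −0.40 and −0.27, with none.

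**Figure D2:**
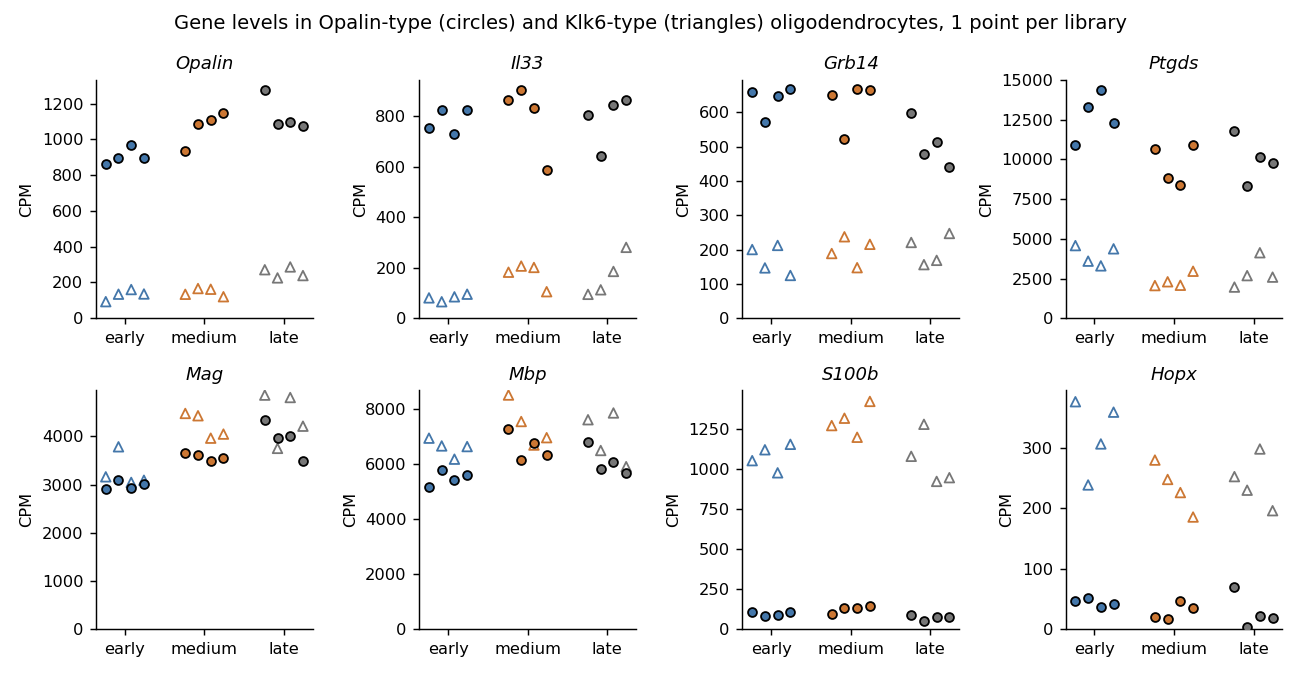
Level of 8 genes in CPM (y axis) in each of the 12 CD45- libraries (x axis, by stage) for Opalin-type cells (circles) and Klk6-type cells (triangles). Opalin, Il33, Grb14 and Mag are genes of the rule; Ptgds is higher in Opalin-type cells of every stage and S100b and Hopx are lower, while Mbp differs little.

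**Figure D3:**
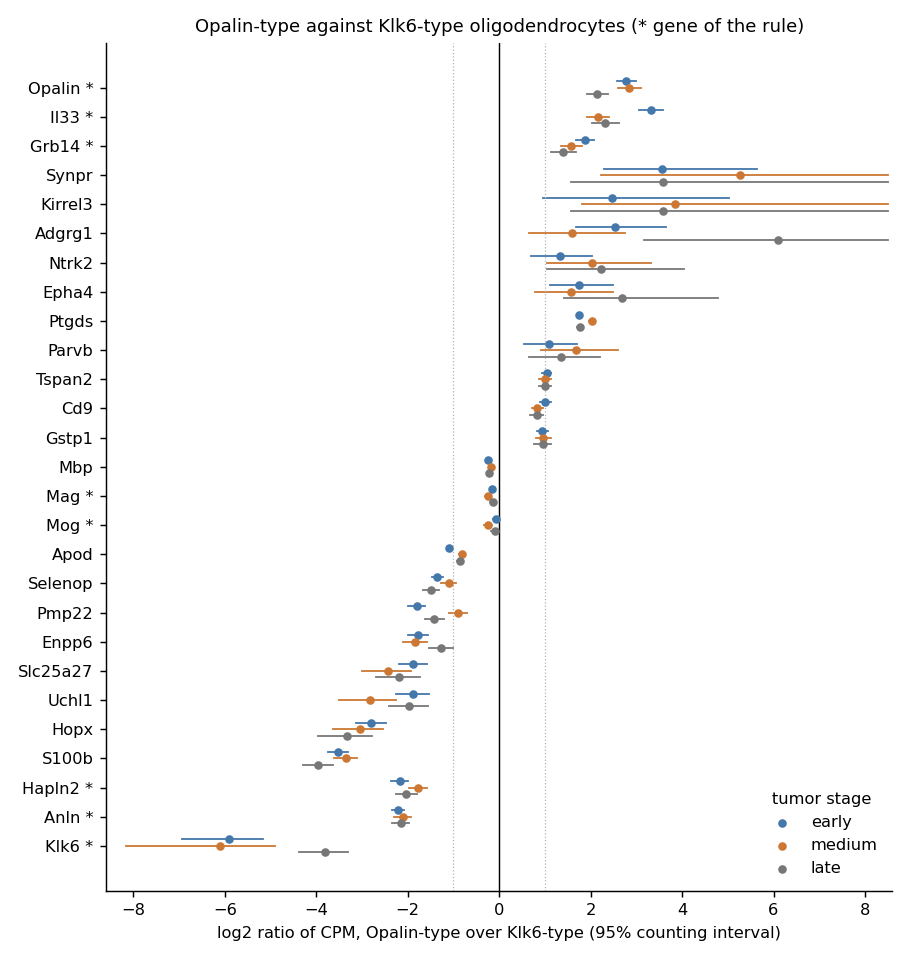
Log2 ratio of CPM in Opalin-type over Klk6-type cells (x axis) for 27 genes (y axis) within each stage, with 95% counting intervals; stars mark genes of the rule and dotted lines the 2-fold limits. Ptgds lies between 1.76 and 2.03 and S100b between −3.96 and −3.36, and an interval that reaches the right edge of the panel goes on beyond it, for genes with 0 or 1 UMI in Klk6-type cells.

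To ask how Opalin-type cells of larger tumors differed from those of early tumors, summed counts of members were compared between stages, over genes with at least 30 UMIs in both stages together. At the medium stage 423 of 9695 genes (4.36%) were at least 2-fold higher than at the early stage and 421 (4.34%) at least 2-fold lower. At the late stage 565 of 9940 (5.68%) were higher and 300 (3.02%) lower. The median log2 ratio over all genes was 0.08 and 0.16, and scaling by the median of ratios moved it to −0.02 and −0.003, so that list medians below are to be read against it.

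The genes of antigen presentation by MHC class I stood out at the medium stage. Of 18 genes compared, 10 were at least 2-fold higher than at the early stage and 0 lower, with a median log2 ratio of 1.10 (jackknife SE over libraries 0.48), which was 0.65 without medium library D. H2-D1 (chromosome 17, 35262730 to 35267499), a class I heavy chain, stood at 917, 596, 1238 and 1265 CPM in medium libraries A to D, against 340, 279, 181 and 214 CPM in early and 46.8, 65.3, 91.3 and 166 CPM in late libraries. The 3 stages did not overlap. B2m, the light chain of class I molecules, stood at 439, 352, 652 and 851 CPM in medium, 104 to 217 in early and 31.2 to 84.7 in late libraries. H2-K1, another heavy chain, stood at 239 to 505, 72.5 to 142 and 31.2 to 85.3 CPM, where the early and late libraries overlapped.

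The medium over early log2 ratio was 1.94 for H2-D1 (1.79 to 2.09), 1.80 for H2-K1 and 1.69 for B2m. It was 2.26 for Psmb8, a subunit of the immunoproteasome, 2.61 for Tap1, a peptide transporter, and 2.50 for H2-Q7. The late over early ratio was −1.46 for H2-D1, −1.51 for B2m and −0.72 for H2-K1, and the median over 12 genes was −0.45 (SE 0.34), with 3 genes at least 2-fold lower. Within runs the medium over early median was 1.22, 0.84 and 1.93, and the late over early median was −0.02, −0.07 and −0.20, nearer to 0 than over all runs. In Klk6-type cells of the same tumors the medium over early median was 1.55 over 15 genes and the H2-D1 ratio 3.22. The difference between the medium and early stages was thus not particular to Opalin-type cells.

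The class I transcripts were carried by a minority of members. A UMI of H2-D1 was found in 17.8% of early, 28.1% of medium and 12.02% of late members, with 3.69, 10.4 and 2.19 UMIs per such cell. Members with at least 5 UMIs of B2m, H2-D1 and H2-K1, a limit set after the values were seen, numbered 52 early (6.50%, libraries 3.48% to 8.64%), 71 medium (18.4%, libraries 13.3% to 23.8%) and 11 late (2.49%, libraries 0% to 4.20%). The 71 medium cells held 2094 UMIs of these genes and the other 314 medium members 123. Below the limit, the summed level of the 3 genes was 149 CPM at the early, 134 at the medium and 103 at the late stage, values that the limit itself keeps low.

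The medium class I cells held Mbp at the level of other members. They held 6705 CPM of Mbp, against 6474 CPM in other medium members, and 5 of 71 lacked Mag and Mog. Their level of Ptgds was 6106 CPM against 10500 CPM, and of Opalin 825 against 1148 CPM. Complement gene C4b was at 242 CPM in them and at 1.09 CPM in the others. Microglial markers summed to 337 against 179 CPM and endothelial markers to 171 against 152 CPM. After thinning, H2-D1 was found in 20% of medium members, against 58.8% of microglial and 54.1% of endothelial cells and 9.75% and 4.31% of early and late members. The median depth of the 71 cells was 3115 UMIs against 2717 in other medium members, and the part of free RNA or of doublets in their class I level was not tested.

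Interferon genes showed a similar but less even picture. Of 15 interferon-stimulated genes compared, 7 were at least 2-fold higher at the medium than at the early stage and 0 lower, with a median log2 ratio of 0.80 (SE 0.35). Igtp, an interferon-induced GTPase, stood at 23.9, 137, 62.1 and 134 CPM in medium libraries, 24.7 to 48.1 in early libraries and 0 in all late libraries, with 81, 117 and 0 UMIs. Iigp1, of the same family, was nearly limited to 2 libraries, with 149 CPM in medium library B and 159 in medium library D, and its 111 UMIs lay in 8 cells. Across the alternatives tried, the interferon median ran from −0.19 to 1.73. At the late stage 1 of 11 genes was at least 2-fold higher and 2 lower, with a median of −0.26. Of 4 MHC class II genes, 3 were at least 2-fold higher at the medium stage, with 6 to 67 UMIs a gene and stage over the early and medium members.

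Transcripts of the mitochondrial genome were lower at the late stage. All 15 were lower than at the early stage, 7 of them at least 2-fold, with a median log2 ratio of −0.92 (SE 0.19). mt-Cytb, a subunit of respiratory complex III, stood at 3137, 2981, 3498 and 3753 CPM in late libraries, 6835 to 8844 in medium and 9097 to 10510 in early libraries, without overlap between stages. mt-Co1, a subunit of complex IV, stood at 10860, 7317 and 3826 CPM by stage. At the medium stage the median was −0.29 (SE 0.09) and no gene passed 2-fold. Nuclear genes of oxidative phosphorylation had medians of −0.04 and −0.20 over 34 genes, none past 2-fold. Klk6-type cells had a late over early mitochondrial median of −1.06, and within runs the median in Opalin-type cells was −1.38, −1.06 and −0.93. The limit of 20% mitochondrial UMIs was part of the selection in every stage.

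**Figure D4:**
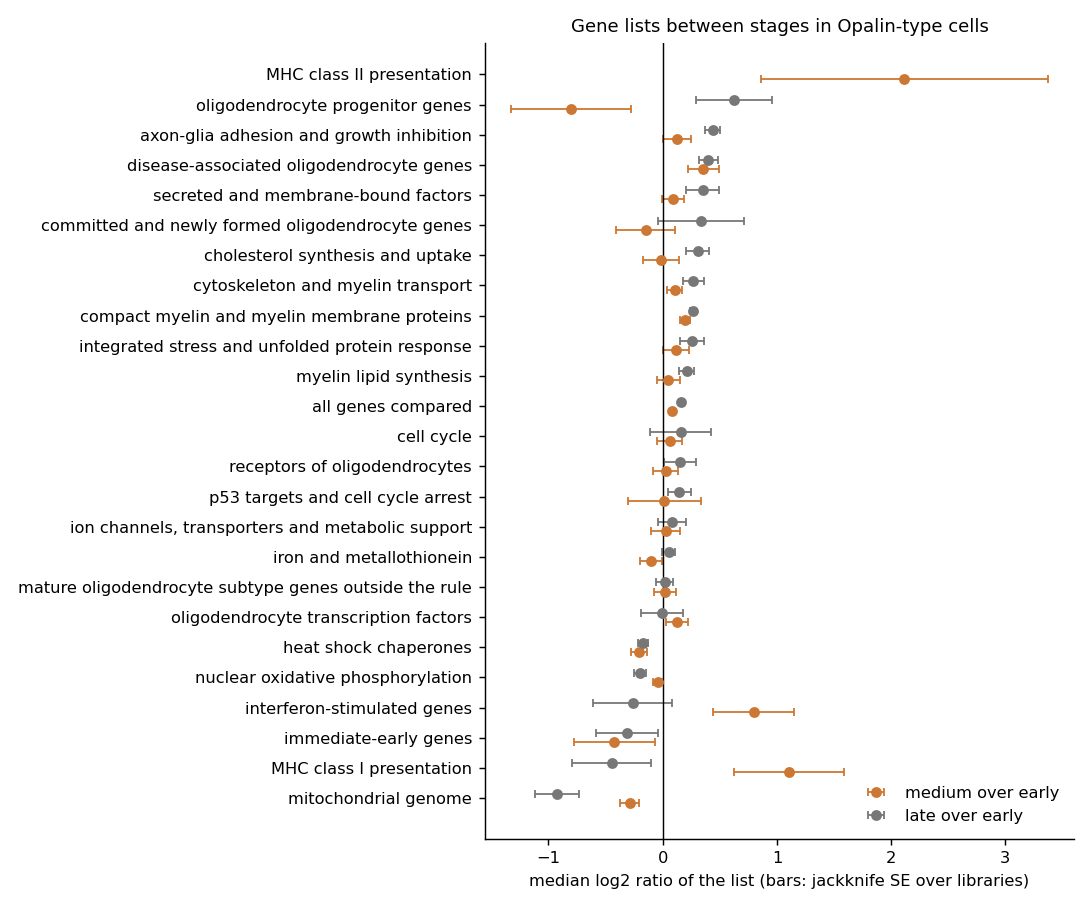
Median log2 ratio (x axis) of gene lists (y axis) in Opalin-type cells, medium over early in orange and late over early in grey, with jackknife standard errors over libraries. MHC class I genes stand at 1.10 at the medium stage and mitochondrial genome transcripts at −0.92 at the late stage. Myelin protein, myelin lipid and cholesterol lists lie between −0.02 and 0.31, where all genes stand at 0.08 (medium) and 0.16 (late).

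Among the members, the myelin program differed little between stages. The rule had left out cells with few UMIs of Mag, Mog, Cldn11 and Mal in every stage. The values therefore describe only cells that held myelin transcripts. Whether myelin expression was lower in cells outside the rule was not tested. Of 35 myelin protein genes, 0 passed 2-fold in either comparison, with medians of 0.19 (SE 0.04) at the medium and 0.26 (SE 0.02) at the late stage, against 0.08 and 0.16 over all genes. Mbp stood at 5535, 6524 and 6047 CPM, and Cnp, an enzyme of the cytoplasmic channels of myelin, at 5500, 6915 and 8179 CPM. Cnp was 5178 to 5720, 6089 to 7599 and 7124 to 9077 CPM in the libraries, so that early libraries lay below the others. Myelin lipid genes had medians of 0.05 and 0.21, with 1 of 23 at least 2-fold lower at the medium and 0 of 22 past 2-fold at the late stage, and cholesterol genes had medians of −0.02 and 0.31 over 26 genes, none past 2-fold.

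Transcription factors of the lineage had medians of 0.13 and −0.01, each with 2 of 21 genes at least 2-fold lower. Sox10, which drives myelin genes, stood at 767, 1032 and 1174 CPM, and Myrf, its partner in differentiation, at 635, 803 and 777 CPM. For Sox10 the early libraries, at 679 to 884 CPM, lay below all medium and late libraries, at 994 to 1081 and 1047 to 1407 CPM. Sox4 and Sox11, of less mature cells, were the 2 lower genes at the medium stage, at 3.41 and 5.97 against 12.4 and 17.1 CPM, a direction that turned without the hsEGFR limit. At the late stage they were Id2 and Id4, inhibitors of differentiation, at 10.1 and 9.36 against 25.2 and 19.5 CPM. After thinning, Sox4 and Id2 were found in 0.625% and 0.875% of early members, against 11.9% and 12.5% of microglial cells. Sox11 and Id4 were found in 0.875% and 1.375% of early members and in 0.610% of microglial cells each. The part of RNA from such cells was not tested.

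Genes of earlier stages of the lineage were sparse. Of 16 genes of committed and newly formed oligodendrocytes compared at the medium stage 2 were lower, with a median of −0.15, and of 18 at the late stage 4 were higher and 1 lower, with a median of 0.33 (SE 0.37). Gpr17, a receptor of differentiating precursors, held 163 UMIs at the late stage, of which 142 lay in 1 cell. Lims2, an adaptor at integrin adhesions, stood at 37.6, 72.5 and 98.3 CPM, with 1.38 late over early (0.97 to 1.81), and 37 of its 126 late UMIs lay in 1 cell. Progenitor genes had medians of −0.80 over 8 genes, 3 of them lower, and 0.62 over 11, 2 of them higher. Both directions turned under alternatives, to 1.88 at the medium stage without the hsEGFR limit and to −1.30 at the late stage within run 3.

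Some genes of the early response to stimulation were lower at the medium stage. Of 26 immediate-early genes, 8 were at least 2-fold lower and 1 higher at the medium stage, with a median of −0.42 (SE 0.35), or −1.14 over the same genes without the 33 cells that lacked Mag and Mog. Fos, a subunit of the transcription factor AP-1, stood at 1143, 610 and 921 CPM, Egr1, a zinc finger factor, at 263, 119 and 185, and Btg2, an antiproliferative factor, at 153, 51.2 and 52.3 CPM. Fos was 988 to 1224 CPM in early, 445 to 763 in medium and 696 to 1181 CPM in late libraries, so that late libraries overlapped both. Microglial markers stood in the same order of stages in the members, at 402, 213 and 280 CPM, and endothelial markers at 234, 156 and 214 CPM. After thinning, Fos was found in 24%, 13.2% and 20.4% of members, against 60.7% of microglial and 59.0% of endothelial cells, and the part of RNA from such cells was not tested. Sgk1, a kinase induced by glucocorticoids, stood apart, at 252, 316 and 97.5 CPM, with 50.7 to 134 CPM in late libraries below 211 in the lowest early library.

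Of 16 heat shock genes, 4 were at least 2-fold lower at the medium stage, with a median of −0.21 (SE 0.07). At the late stage 3 were lower and 1 higher, with a median of −0.17. Hspa1b, the inducible HSP70, stood at 203 to 317 CPM in early, 37.8 to 177 in medium and 57.9 to 131 CPM in late libraries. After thinning it was found in 10.3%, 3.64% and 5.44% of members, against 15.6% of microglial and 43.0% of endothelial cells, whose markers stood in the same order of stages, and their part was not tested. Hspa1a and Dnajb1, its co-chaperone, stood at 175 and 209 CPM early, 62.2 and 78.4 medium and 98.3 and 120 CPM late.

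Disease-associated oligodendrocyte genes, a set known from injured and inflamed white matter that includes H2-D1, H2-K1 and B2m, did not move as 1 group. At the medium stage 7 of 23 were at least 2-fold higher and 1 lower, with a median of 0.36 (SE 0.13), or 0.04 without the cells that lacked Mag and Mog. At the late stage 6 of 25 were higher and 4 lower, with a median of 0.40 (SE 0.08). C4b stood at 2.57 to 19.1 CPM in early, 19.1, 26.0, 38.8 and 131 in medium and 33.9 to 48.7 CPM in late libraries, with 23, 62 and 52 UMIs. The lowest medium value met the highest early value, and all late libraries lay above the early ones.

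Serpina3n, a secreted serine protease inhibitor, stood at 210, 169, 128 and 226 CPM in late libraries, above 77.4 to 102 in early and 58.2 to 98.9 CPM in medium libraries. The log2 ratio late over early was 1.03 (0.75 to 1.32). It was found in fewer cells, however, in 107 early (13.4%, 1.72 UMIs each), 57 medium (14.8%, 1.77 each) and 30 late members (6.80%, 7.67 each), and 83.9% of the 230 late UMIs lay in 10 cells. The higher late level thus lay in few cells with many UMIs. Klk6-type cells gave a ratio of 0.96.

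**Figure D5:**
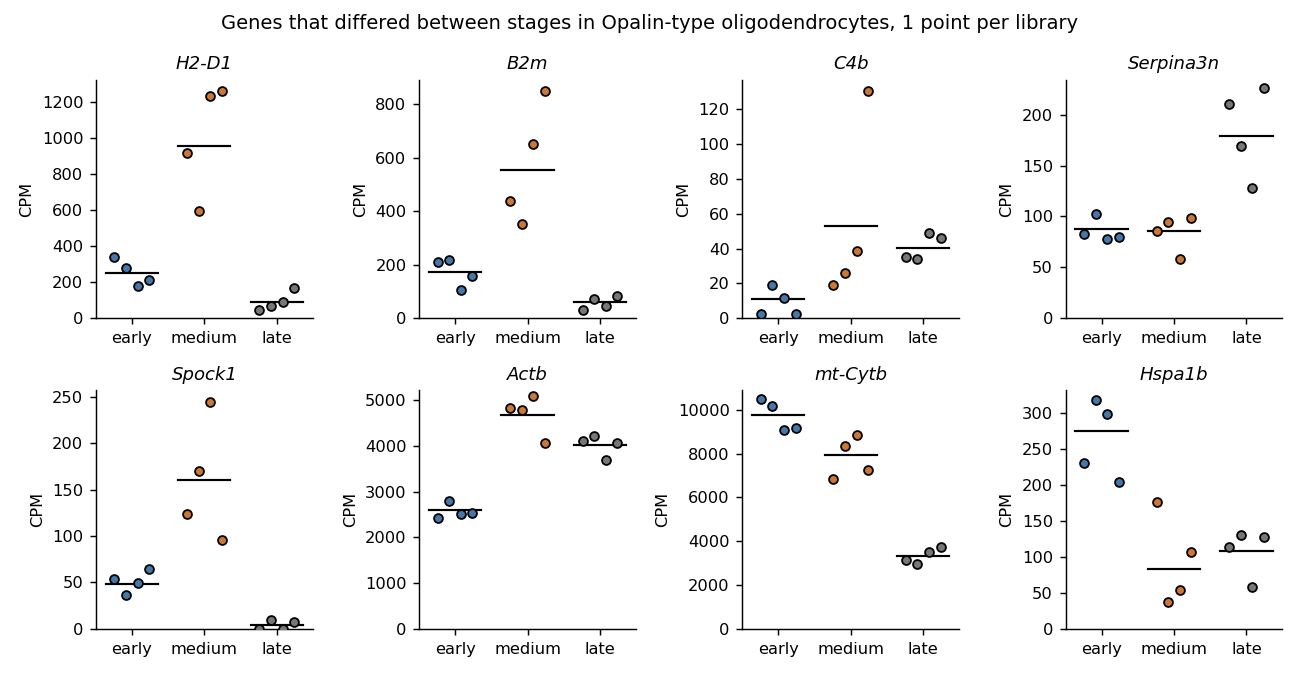
Level of 8 genes in CPM (y axis) in Opalin-type cells of each library (points) by stage (x axis), with a line at the stage level. H2-D1 and B2m are highest in the 4 medium libraries, Serpina3n in the 4 late libraries, mt-Cytb and Hspa1b in the 4 early libraries, and Spock1 is at or near 0 in the late libraries.

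Among the named genes outside the lists, Spock1 differed between all stages. Spock1 (chromosome 13, 57421195 to 57908332), a secreted proteoglycan, stood at 53.5, 36.9, 49.4 and 64.3 CPM in early, 124, 170, 245 and 95.4 in medium and 0, 9.67, 0 and 7.06 CPM in late libraries. The 3 stages did not overlap. It was found in 63 early (7.88%), 71 medium (18.4%) and 2 late members (0.454%), with 102, 188 and 6 UMIs, and no cell held more than 10. The log2 ratio was 1.72 medium over early (1.37 to 2.09) and −3.27 late over early (−4.85 to −2.20), and it was 1.70 and −4.31 in Klk6-type cells. Whether stage, sex or background goes with this difference cannot be told apart.

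Mylk, the myosin light chain kinase, held 9, 64 and 10 UMIs in 9, 33 and 6 members, with 34.9 to 100 CPM in medium against 1.37 to 6.59 CPM in early libraries. Actb, cytoplasmic beta-actin, stood at 2429 to 2786 CPM in early, 4066 to 5076 in medium and 3693 to 4212 CPM in late libraries, with log2 ratios of 0.85 and 0.63. Actg1, the gamma-actin of the same filaments, stood at 0.75 and 0.62. Both actin genes lay below 2-fold, and the early libraries were the lowest of all. Opcml, a cell adhesion protein, stood at 22.8, 24.7 and 52.3 CPM and Pdia4, a chaperone of the endoplasmic reticulum, at 39.5, 40.9 and 84.3 CPM. Ptgds was lower in larger tumors, with log2 ratios of −0.45 and −0.41, but the stages overlapped, at 10880 CPM in the lowest early and 11800 CPM in the highest late library.

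Among the genes with the largest ratios between stages, Gad1, Meg3, Ttr, Cldn5 and Lgals1 belonged to the marker lists of other cells. At the medium stage the 10 lowest were Gad1, Ttr, Vat1l, Rgs7bp, Camk2b, Erc2, Nyap1, Cldn5, Meg3 and Clic6, and at the late stage Pcp4l1, Igtp, Ttr, Sostdc1, Tbc1d9, Gad1, Calml4, Bcl11b, Clic6 and Spock1. Ttr, the transthyretin of the choroid plexus, held 6296 UMIs at the early stage, of which 92.4% lay in 10 cells, and 65 and 39 UMIs later. It was found in 229 early (28.6%), 46 medium (11.95%) and 32 late members (7.26%), and after thinning in 12.75%, 4.68% and 1.81%. Gad1, the enzyme of inhibitory neurons, held 88, 0 and 2 UMIs, of which 56 lay in 1 cell. Meg3, a neuronal RNA, held 368, 8 and 293 UMIs in 27, 8 and 18 cells. Most early UMIs of Ttr, Gad1 and Meg3 thus lay in few cells, while Ttr was also found in a larger share of early than of later members.

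The 10 highest at the medium stage were Cxcl1, Ifitm1, AI506816, Ifi47, Gbp7, Sfrp4, Serpinf1, Mylk, Ifitm2 and Rps15a-ps6. All 34 UMIs of Cxcl1 lay in 1 cell, 90 of the 96 medium UMIs of Ifitm1 in 1 cell, and 47.6% to 100% of the UMIs of Cxcl1, Ifitm1, AI506816, Ifi47, Gbp7, Sfrp4, Serpinf1 and Ifitm2 in the 33 cells without Mag or Mog. Highest at the late stage were Spp1, Cyp1b1, Dcn, Pcolce, Serpinf1, Tubb6, Ifitm2, Lgals1, Tnfrsf1a and Fabp7, of which Cyp1b1, Dcn, Pcolce, Serpinf1 and Ifitm2 had 90.9% to 98.9% of their UMIs in those cells, Lgals1 74.2% and Tnfrsf1a 53.1%. Of the other named genes, Bace2, Calml4 and Cldn5 had 40.5% to 48.3% of their UMIs there, Spp1 36.2%, Tubb6 30.2%, Tbc1d9 28.9%, Rps15a-ps6 28.2%, H2-Eb1 25.6%, Clic6 23.5%, Igtp 22.7%, Pcp4l1 21.3%, Vat1l 19.6%, Mylk 19.3% and Fabp7 12.3%. Without these cells the median medium over early was −1.60 in place of −0.87 for endothelial markers and −0.35 in place of 0.01 for p53 target genes. Without them the late over early log2 ratio was 1.95 in place of 3.01 for Lgals1 and 2.07 in place of 2.66 for Tnfrsf1a. Other ratios went up, to 5.86 in place of 4.90 for Dcn late over early and 6.36 in place of 5.485 for Ifi47 medium over early. Of the UMIs of Dcn 95.1% and of Ifi47 47.6% lay in the removed cells. The early stage had held only 12 UMIs of Dcn, in 1 cell, and 1 of Ifi47. These higher ratios thus rest on few UMIs and on the 0.5 added UMIs, and show no larger difference. Without these cells 359 genes were at least 2-fold higher and 427 lower of 9439 at the medium stage, and 487 and 307 of 9688 at the late stage.

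Markers of several other cell types were found in all stages, while those of red cells, abundant at the early stage, were at 0 at the late stage. Microglial and macrophage markers summed to 402, 213 and 280 CPM, astrocyte markers to 553, 390 and 407 and endothelial and pericyte markers to 234, 156 and 214 CPM, with Kcnj8 at 0 in each. Of 10 T cell and neutrophil markers, 9 were at 0 in every stage. Neuronal markers summed to 415, 114 and 517 CPM, and ependymal and choroid plexus markers, which include Enpp2, a gene of oligodendrocytes too, to 6401, 3534 and 3503 CPM. Transgene hsTGFA was at 0 in all members, and iCre at 0, 9 and 5 UMIs. The part of these RNAs in the ratios between stages was not tested.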

How the data were processed

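Cells were captured by inDrop single-cell RNA sequencing from CD45- sorts of 3 tumor stages. The deposited values are UMI counts, not normalized, of 50262 genes in single cells. Per the paper's methods, the authors used RapMap within bcbio-nextgen on the GRCm38 transcriptome, and cells were told from empty droplets. How the transgenes in the table were added to the reference is not given in the sources used here. The build named in the submitters' processing notes is mm10. Whether ambient RNA and doublets were removed before deposit is not given in the sources used here. A deposited sheet of text labels ties each library to its run, stage and sort, and 11720 columns of CD45+ cells were not used.

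Members and gene lists were chosen with earlier results of these data known. UMIs of member cells were summed per stage and per library and divided by the total to give CPM. Log2 ratios carry 0.5 added UMIs, with exact conditional Poisson intervals at 95%, and shares carry Clopper-Pearson intervals. With each stage taken as 1 tumor sample no test was run, and a gene was called past 2-fold. A floor of 3 counts stands behind a share of 0. Genes of fewer than 30 UMIs over the groups compared were left out. Of 37 lists with 634 genes, medians were taken where at least 3 genes remained. Rule genes, sex-linked genes, haemoglobin genes and genes with Gm, Rik or mitochondrial names were left out of the rankings. The pseudogene Rps15a-ps6 was not caught by these limits on names and stayed in. Beside list members, the text names the 15 highest and 15 lowest genes between types by the smallest ratio over stages. It also names the 10 highest and 10 lowest genes of each stage comparison, among those with 1 direction in every run and a counting interval on 1 side of 0. A run with 0 UMIs of a gene in both stages takes its sign from the added UMIs and the depths, so that for genes held by few cells, such as Cxcl1, this rule shows no agreement between runs. List members given by name were chosen after their values were seen. Scrublet (20 components, expected rate 6%) called 80 of 6676 cells doublets, none of which were removed in the main values. Coordinates come from GENCODE M21. Some items of the model and of the gene lists are not reported here. Alternatives without the hsEGFR limit, without members lacking Mag and Mog and without recurring barcodes were added after the data were seen. The ratio and share functions were tested on simulated counts. Python 3.11.15, numpy 2.4.6, scipy 1.17.1, pandas 2.3.3 and scanpy 1.11.5 were used.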

Additional observations from a re-analysis of the deposited data

Results flagged for a closer look

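Of 60 sets of 4 libraries that were looked at for a library far from the others, 2 held one, where chance alone gives about 1 in 20. Grb14 was 522.7 CPM in medium library B and 649.5, 664.1 and 667.5 CPM in the other medium libraries. Opalin was 1274 CPM in late library A and 1073, 1088 and 1099 CPM in the other late libraries.

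The transgene iCre, the recombinase carried by the virus and used in no comparison, gave 9 UMIs in 2 medium Opalin-type cells and 5 UMIs in 4 late Opalin-type cells, and 0 in the 800 early ones. No Klk6-type cell held an iCre UMI. The paper used iCre beside EGFR to name its clusters of tumor cells. Since the rule set a limit on hsEGFR alone, the cells with iCre stayed among the members. Their iCre UMIs put the label in doubt for these cells. The part that free iCre RNA or tumor cells had in these counts was not tested. The levels of iCre were 7.67 CPM at the medium and 3.90 CPM at the late stage.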

How the results depend on the processing

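No paired analysis was possible because each stage was treated as 1 tumor sample, which leaves no replicates to pair in a test. Every run held libraries of all 3 stages, and values within runs were compared without a test. Shares of CD45- cells were 24.1% early, 15.8% medium and 17.6% late over every deposited cell, where the order of medium and late turned, 22.9%, 21.2% and 16.6% with the Opalin side higher by at least 2 UMIs, 25.8%, 20.8% and 17.4% after thinning to 1000 UMIs, 26.3% early within run 2, and 22.5% late without recurring barcodes. Shares of oligodendrocytes were 46.6% early over every deposited cell, 42.0%, 49.5% and 52.3% at the margin of 2 UMIs, 48.8%, 49.5% and 55.3% after thinning, 49.6% early in run 1, 60.1% medium and 64.1% late in run 3, and 51.1% medium and 49.9% late without the hsEGFR limit. Leaving out 1 library at a time gave 28.6% to 30.1%, 23.3% to 24.3% and 18.7% to 20.2% of CD45- cells and 52.3% to 54.3%, 54.2% to 57.2% and 59.4% to 61.4% of oligodendrocytes.

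Counts of genes past 2-fold moved with the minimum of UMIs, to 996 higher and 1146 lower at 10 UMIs and 77 and 75 at 100 UMIs for medium over early, 1273 and 853, and 139 and 85, for late over early, and 307 higher, and 56 and 60, between Opalin-type and Klk6-type cells. Within runs, medium over early gave 165 (run 1) and 255 (run 2) lower genes, late over early 175 (run 1) lower, and the types 84 (run 2) and 83 (run 3) higher and 64 (run 1) and 61 (run 3) lower. With 2 UMIs added 96 genes were higher between types. Without the hsEGFR limit 1055 were higher late over early and 102 between types. With 1 library left out at a time the counts were 377 to 502 higher and 318 to 497 lower (medium over early), 471 to 661 and 266 to 452, the last without late library B (late over early), and 137 to 191 and 89 to 104 (types). The MHC class I median medium over early was 1.93 in run 3 and 1.63 without the hsEGFR limit, and 0.65 without medium library D to 1.33. The late mitochondrial median was −1.38 in run 1, and −1.13 without early library B to −0.92.

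Directions turned for the sex-linked medium over early median (0.30 at 10 UMIs, 0.15 without the hsEGFR limit), for Cntn1 (0.040), Serpine2 (1.10), Sox11 (0.052) and Sox4 (1.50) medium over early without the hsEGFR limit, and, without members lacking Mag and Mog, for Ifitm2 (−0.72), Serpinf1 (−1.46) and Vim (−1.38) medium over early and Cxcl12 (−0.23) and Serpinf1 (−1.59) late over early. Late over early they also turned for Cxcl12 at a myelin gate of 8 UMIs (−1.19) and, at the margin of 2 UMIs, for Cxcl12 (−0.16) and Serpinf1 (−2.17). Without medium library B, Ifitm1 was −0.10 and Slc7a11 −0.033, of ranges up to 8.14 and 2.68. Lists with smaller medians also crossed 0 under some alternative. Late over early, MHC class I reached 0.26 (at least 100 UMIs), disease-associated genes −0.16 (run 3), immediate-early genes 0.43 (run 2), newly formed genes −0.45 at the lowest, interferon genes 0.27 at the highest and progenitor genes −1.30 (run 3). Medium over early, progenitor genes reached 1.88 (no hsEGFR limit) and interferon genes −0.19. Other lists with medians near 0 crossed it too. The cause was not tested. Under the alternatives, 268 values of shares and counts stayed near those reported and 44 moved. Genes of few UMIs limit the depth.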
